A study of Mus musculus with 2 samples.

Results

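Chemokines are small secreted proteins that draw leukocytes along a gradient, and they are sorted into the CC, CXC and CX3C families by the spacing of their first cysteines. In the vessel wall, vascular smooth muscle cells (VSMCs) can make them together with interleukin 6 and the growth factors of macrophages, and this is a known part of the inflamed state of the wall in aneurysm and atherosclerosis. Signals through NF-kappaB and the interferon-activated STAT factors are the textbook inducers of many of these genes. The set described here holds 10 genes: the CC chemokines Ccl2, Ccl7 and Ccl5, the CXC chemokines Cxcl10, Cxcl1 and Cxcl12, the CX3C chemokine Cx3cl1, and the cytokines Il6, Csf1 and Lif. They were picked by name from a table of 11263 gene symbols and were chosen on results of these same data, so the values of the 2 libraries are given as a description.

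Primary VSMCs of the mouse aorta were infected for 36 hours with an adenovirus that encodes Klf5 (Ad-Klf5, titled Ad-K5 in the labels) or with the GFP control adenovirus (Ad-Ctl, titled Ad-GFP), and their RNA was sequenced. The methods describe isolation from aortas of male mice, and both cultures went through adenoviral infection, so neither stands for uninfected cells. Strain is labelled C57BL/7 in Ad-Klf5 and C57BL/6 in Ad-Ctl, and the treatment text names an LY1 line and a lentivirus with shSirt6 for both samples. A difference of strain and the effect of the virus cannot be told apart. One library per condition is named, so the differences between the named libraries have no replicate check and no p-value was computed. The unit is FPKM, the number of fragments per kilobase of transcript normalised to the mapped fragments of the library, which allows levels to be set beside each other between genes of a library. The methods give an approximate number of reads per sample, but the number of reads behind a single value is unknown.

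A gene was taken as measured at a mean of at least 1 FPKM over both libraries, which 10157 genes reached. Ratios are log2(FPKM + 1) in Ad-Klf5 minus log2(FPKM + 1) in Ad-Ctl, and the pseudocount pulls the ratios of scarce genes towards 0. The words higher and lower are kept for genes at least 2-fold apart on this scale. Klf5 itself was at 2.62 FPKM in Ad-Klf5 and at 1.76 FPKM in Ad-Ctl, a log2 ratio of 0.39 that is under 2-fold. Of the smooth muscle markers, Acta2 was at 201 FPKM in Ad-Klf5 and at 229 FPKM in Ad-Ctl and Tagln at 14.4 and 10.3 FPKM, and Cnn1 was under 1 FPKM in both. The log2 ratios were -0.58 for Lmod1 and -0.28 for Smtn, against 0.24 for Cald1, 0.15 for Tpm2 and 0.0048 for Des, and of 7 measured smooth muscle markers 4 lay above 0 and 3 below, with a median of 0.0048. Of the 14 markers of this kind, 8 were listed in the table, and Myh11 and Myocd, which define the contractile state, were not among them.

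All 10 chemokines and cytokines were listed, and 9 passed the filter. Of these 9, the 4 chemokines Ccl7, Ccl2, Ccl5 and Cxcl10 were higher in Ad-Klf5, Cx3cl1 was lower, and the other 4 were under 2-fold. Over all measured genes 0.975% were higher and 0.679% were lower in Ad-Klf5, which is 99 and 69 genes, or 77 and 107 genes with equal FPKM sums. Since the set was drawn up with these ratios known, its count is not evidence about chemokines as a class. The median log2 ratio of the 9 genes was 0.28, against -0.017 over all measured genes, and it covers genes that lie between -1.05 and 1.57. It moved to 0.10 at a pseudocount of 5, to 0.45 at a pseudocount of 0.1, and to 1.07 with a minimum mean of 5 FPKM, which leaves out Cx3cl1 and Lif.

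**Figure D1:**
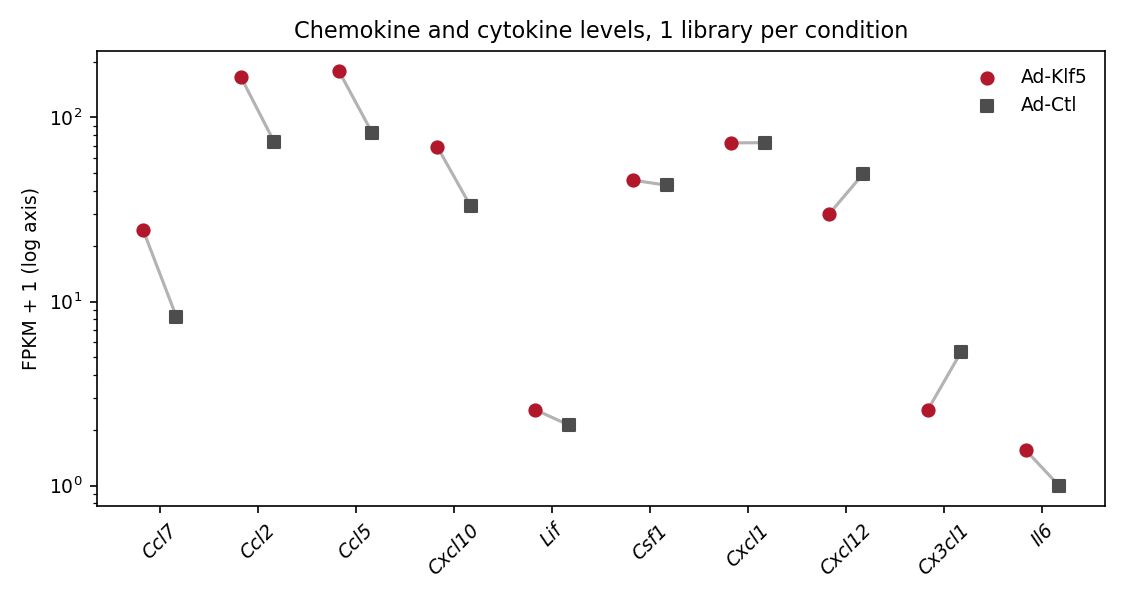
Level of each of the 10 chemokines and cytokines, as FPKM + 1 on a log axis, in the Ad-Klf5 library (red circles) and the Ad-Ctl library (grey squares), 1 library per condition and no error bars. Ccl7, Ccl2, Ccl5 and Cxcl10 stand higher in Ad-Klf5, Cxcl12 and Cx3cl1 stand below Ad-Ctl, and Il6 is listed at 0 FPKM in Ad-Ctl.

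The CC chemokines of the set recruit monocytes and T cells, and all 3 of them, picked with their ratios known, were higher in Ad-Klf5. The CC chemokines measured outside the set, Ccl20 (log2 ratio 0.92), Ccl17 (0.32) and Ccl27a (0.25), were under 2-fold. Ccl2, the monocyte chemoattractant MCP-1 that acts through Ccr2, was at 164 FPKM in Ad-Klf5 and at 72.2 FPKM in Ad-Ctl. The log2 ratio was 1.17 (2.27-fold on FPKM without the pseudocount), and 57 measured genes had a higher ratio. Ccl2 (ENSMUSG00000035385.5) lies on the plus strand of chromosome 11 from 82035571 to 82037453 on GRCm38. The next gene along that strand in the same chemokine cluster is Ccl7 (ENSMUSG00000035373.2, from 82045712 to 82047525), which starts 8259 bases past the end of Ccl2 and encodes another Ccr2 ligand, MCP-3. Ccl7 was at 23.6 FPKM in Ad-Klf5 and at 7.28 FPKM in Ad-Ctl, with a log2 ratio of 1.57, the highest of the set, and 28 measured genes above it. Both neighbours so had the higher level in the same library, with Ccl2 at 6.97 times the FPKM of Ccl7 in Ad-Klf5 and at 9.92 times in Ad-Ctl. Ccl11, Ccl12, Ccl8 and Ccl1, which GENCODE places next to them on chromosome 11, were not listed and so have no value here.

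Ccl5 (ENSMUSG00000035042.2), known as RANTES, lies apart from that pair on the minus strand of chromosome 11, from 83525778 to 83530518. It was at 177 FPKM in Ad-Klf5 and at 80.9 FPKM in Ad-Ctl, a log2 ratio of 1.12 or 2.18-fold on FPKM. Ccl5 was the most abundant of the 10 genes in both libraries, above 97.4% of measured genes in Ad-Klf5 and above 93.8% in Ad-Ctl. Its level kept close to that of Ccl2, at 1.08 times in Ad-Klf5 and 1.12 times in Ad-Ctl. These within-library quotients do not depend on how the libraries were scaled.

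The 3 CXC chemokines went separate ways. Cxcl10 (ENSMUSG00000034855.13, chromosome 5 from 92346638 to 92348889, minus strand) is the interferon-induced ligand of Cxcr3 that attracts activated T cells. It was at 68.5 FPKM in Ad-Klf5 and at 32.0 FPKM in Ad-Ctl, a log2 ratio of 1.07 that passes 2-fold by little. It came to 0.99 at a pseudocount of 5 and to 0.97 after both libraries were scaled to equal FPKM sums, each under 2-fold. Cxcl1 (ENSMUSG00000029380.11, chromosome 5 from 90891241 to 90893115), the neutrophil attractant that acts through Cxcr2, was at 71.8 FPKM in Ad-Klf5 and at 71.9 FPKM in Ad-Ctl. Its log2 ratio was -0.0036, so that Cxcl10 was at 0.954 times the level of Cxcl1 in Ad-Klf5 and at 0.445 times in Ad-Ctl. Cxcl5 and Cxcl15, the other genes of the Cxcl1 cluster that were listed, were at 37.9 and 13.3 FPKM in Ad-Klf5, against 36.7 and 23.6 FPKM in Ad-Ctl.

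Cxcl12 (ENSMUSG00000061353.11, chromosome 6 from 117168535 to 117181367), which holds Cxcr4-bearing cells in their niche, was at 29.0 FPKM in Ad-Klf5 and at 48.2 FPKM in Ad-Ctl. Its log2 ratio of -0.71 is under 2-fold, although 301 of the 10157 measured genes had a lower one. The CC chemokines and Cxcl12 thereby changed their proportion. Ccl2 was at 5.65 times the level of Cxcl12 in Ad-Klf5 and at 1.499 times in Ad-Ctl, and Ccl5 at 6.09 times in Ad-Klf5 and 1.68 times in Ad-Ctl.

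Cx3cl1 (ENSMUSG00000031778.13, chromosome 8 from 94772009 to 94782427), or fractalkine, is made as a membrane-bound protein and shed by Adam10 and Adam17. It was at 1.56 FPKM in Ad-Klf5 and at 4.30 FPKM in Ad-Ctl, a log2 ratio of -1.05. Only 8.09% of measured genes were below it in Ad-Klf5, against 29.7% in Ad-Ctl, and at such a level the pseudocount decides much of the ratio. Its log2 ratio was -1.40 at a pseudocount of 0.1, and at a pseudocount of 5 it was -0.50, where no member of the set was lower. Ccl17, a neighbour of Cx3cl1 on chromosome 8, was at 2.08 FPKM in Ad-Klf5 and at 1.46 FPKM in Ad-Ctl.

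Of the cytokines, 2 had a ratio and both were under 2-fold. Csf1 (ENSMUSG00000014599.10, chromosome 3 from 107741048 to 107760469), the growth factor of macrophages, was at 44.6 FPKM in Ad-Klf5 and at 41.9 FPKM in Ad-Ctl, a log2 ratio of 0.090. Lif (ENSMUSG00000034394.14, chromosome 11 from 4257557 to 4272514), a cytokine of the interleukin 6 family, was at 1.58 FPKM in Ad-Klf5 and at 1.13 FPKM in Ad-Ctl, a log2 ratio of 0.28. Il6 (ENSMUSG00000025746.11, chromosome 5 from 30013114 to 30019981) was at 0.560 FPKM in Ad-Klf5 and is listed at 0 FPKM in Ad-Ctl. No ratio was taken for Il6, which did not pass the filter, and 14 genes of the table are listed at 0 in Ad-Ctl and 8 in Ad-Klf5. The ratio of Csf1 turned to -0.013 with equal FPKM sums.

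Summed over the 10 genes, the level was 582 FPKM in Ad-Klf5 and 360 FPKM in Ad-Ctl, or 0.194% and 0.129% of all FPKM in the library. Ccl2, Ccl5, Cxcl10 and Ccl7 made up 74.4% of that sum in Ad-Klf5 and 53.5% in Ad-Ctl. These are the genes called higher, so their larger share in Ad-Klf5 follows from that grouping and is no separate result. The shares of the other members are parts of the same sum. The share of Cxcl12 was 4.99% in Ad-Klf5 and 13.4% in Ad-Ctl, and that of Cxcl1 was 12.3% in Ad-Klf5 and 20.0% in Ad-Ctl. In these bulk samples a change in the share of a cell type and a change in RNA per cell cannot be told apart.

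**Figure D2:**
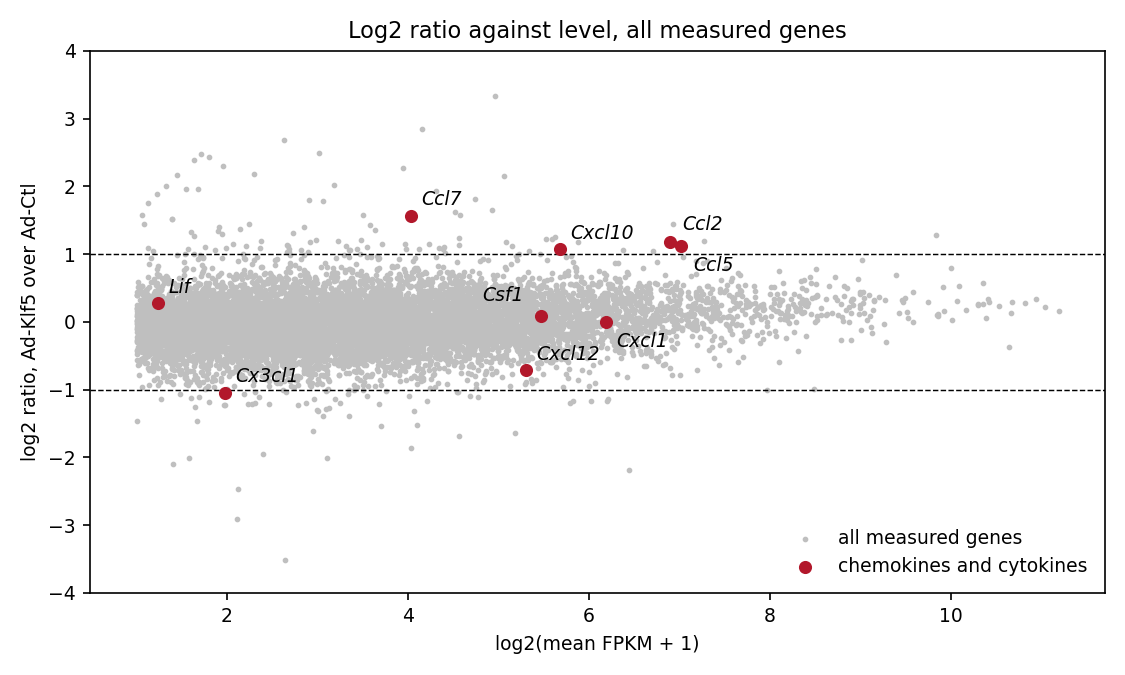
Log2 ratio between Ad-Klf5 and Ad-Ctl (vertical axis) against log2(mean FPKM + 1) (horizontal axis) for the 10157 measured genes (grey) and the 9 measured chemokines and cytokines (red), with dashed lines at 2-fold; 2 genes lie outside the axis, beyond 4. Ccl7, Ccl2, Ccl5 and Cxcl10 stand above the upper line, and Cx3cl1 lies just past the lower line.

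The promoters of 7 of the 10 genes were read from RefSeq (GRCm38.p6), as 250 bases before and 50 after the start of the gene; those of Ccl2, Ccl7 and Ccl5 were not analysed here. A match to the kappaB consensus, the site bound by NF-kappaB, was found on either strand in 5 of the 7, namely Cxcl10, Cxcl1, Il6, Csf1 and Lif, and in 8.46% of 32851 promoters of this length. The interferon-type motif GAAANNGAA was found in Cxcl10, 213 bases before the start, and in 8.56% of all promoters. The GC box GGGCGG, a letter run bound by Sp1 and Krüppel-like factors, was found in Cxcl12, Cx3cl1 and Csf1 and in 35.7% of all promoters, and the CACCC run CCACCC in Cxcl12, Il6 and Lif and in 31.5%. The upstream 250 bases of the CXC chemokines are printed because these genes had different ratios, and they are written 5′ to 3′ in the direction of transcription. Capitals mark the kappaB matches and the GAAANNGAA match in Cxcl10 and Cxcl1, and the GC boxes in Cxcl12.
Cxcl10, chr5:92348890-92349139, minus strand: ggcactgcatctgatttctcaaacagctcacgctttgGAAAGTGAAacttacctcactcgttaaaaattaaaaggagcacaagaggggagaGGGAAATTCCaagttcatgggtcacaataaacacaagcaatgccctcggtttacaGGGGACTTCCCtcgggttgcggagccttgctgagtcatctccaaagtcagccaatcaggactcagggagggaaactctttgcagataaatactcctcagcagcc
Cxcl1, chr5:90890995-90891244, plus strand: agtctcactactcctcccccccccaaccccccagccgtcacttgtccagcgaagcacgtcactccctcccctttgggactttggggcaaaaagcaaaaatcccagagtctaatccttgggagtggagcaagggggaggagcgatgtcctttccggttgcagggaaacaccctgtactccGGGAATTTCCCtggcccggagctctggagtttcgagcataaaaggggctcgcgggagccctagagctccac
Cxcl12, chr6:117168285-117168534, plus strand: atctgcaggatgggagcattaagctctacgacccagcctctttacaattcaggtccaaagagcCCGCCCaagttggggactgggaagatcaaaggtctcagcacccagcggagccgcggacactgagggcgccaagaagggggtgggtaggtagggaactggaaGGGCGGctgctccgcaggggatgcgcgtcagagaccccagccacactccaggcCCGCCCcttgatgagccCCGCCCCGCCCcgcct

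Cxcl10, which was higher in Ad-Klf5, had kappaB matches at 2 places, of which the one nearer to the start holds 3 overlapping matches. Cxcl1, level in both libraries, had 1 such place with 2 overlapping matches. Csf1 and Lif, both under 2-fold, and Il6, which has no ratio, had 1 such place each, and Csf1 also had 2 GC boxes. Of the genes called higher, Cxcl10 alone had its promoter read, and a relation between motifs and ratios was not tested. Cxcl12 had no kappaB match and 5 GC boxes, of which the 2 nearest to the start overlap by 1 base. Cx3cl1, the lower gene, had 1 GC box and no kappaB match in its window. That window, from 94771930 to 94772229, follows the RefSeq start, and most of it lies past the GENCODE start of the gene at 94772009. The motif AP-1 TGANTCA was found in Cxcl10, Il6 and Lif and in 7.81% of all promoters, TATAAA in Cx3cl1 and in 13.6%, and the STAT motif TTCNNNGAA in none of the 7 and in 8.30%. A kappaB match was thus shared by genes with ratios between -0.0036 and 1.07, and a match is a run of letters and does not show that a factor was bound.

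Genes that the chemokines and cytokines work with were described from 11 lists drawn up by function, of which 143 genes were measured. None of the 143 was 2-fold apart, 59 had a ratio above 0 and the median was -0.097. Over all measured genes 0.975% were higher and 0.679% were lower, and at these shares few of 143 genes would be 2-fold apart. Of all measured genes 47.9% had a ratio above 0 and the median was -0.017. The counts of each list below stand beside these shares with no test of the difference. With a pseudocount of 0.1, 2 of them were higher and 1 was lower, and with equal FPKM sums 1 was lower. Over the alternatives run, the medians of the NF-kappaB list (-0.23 to -0.10), the interferon list (-0.22 to -0.098), the shedding list (-0.21 to -0.088), the adhesion list (-0.32 to -0.16) and the Il6 family (-0.44 to -0.067) stayed below 0. Those of Jak-STAT, the receptors and the further ligands changed sign.

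Among 6 further chemokine ligands, Ccl20, a Ccr6 ligand, was at 3.20 FPKM in Ad-Klf5 and at 1.21 FPKM in Ad-Ctl (log2 ratio 0.92). Cxcl15 had a log2 ratio of -0.78 and Cxcl16, the Cxcr6 ligand, of -0.37. Of the 23 chemokine receptors only Ackr3 and Ccrl2 were listed, so that Ccr1, Ccr2, Cxcr2, Cxcr3, Cxcr4 and Cx3cr1, signalling receptors of the set, have no value here. Ackr3, the scavenging receptor of Cxcl12, was at 2.75 FPKM in both libraries. The receptor of Csf1, Csf1r, was not listed either, and of the colony stimulating factors and their receptors the table holds Csf2ra, at 0.812 FPKM in Ad-Klf5 and at 1.57 FPKM in Ad-Ctl. Receptor subunits of Il6 and Lif were measured. Il6st, the shared signal transducer gp130, was at 16.1 FPKM in Ad-Klf5 and at 23.0 FPKM in Ad-Ctl (log2 ratio -0.49), Il6ra at 2.57 and 2.79 FPKM, and Lifr at 2.21 and 2.06 FPKM. In the list of 8 measured ligands and receptors of that family, 7 had a ratio below 0, with a median of -0.12. Il11ra1 (-0.38) is among them, whose near-identical copy Il11ra2 could share its reads, as is the ligand gene Ctf1 (-0.19).

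Of 45 measured NF-kappaB pathway genes, 31 had a ratio below 0 and the median was -0.13. The transcription factor subunit Rela was at 87.9 FPKM in Ad-Klf5 and at 87.6 FPKM in Ad-Ctl, and the inhibitor Nfkbia, itself an NF-kappaB target, at 94.2 and 90.9 FPKM. The widest ratios were those of the lipopolysaccharide receptor Tlr4 (0.94, at 1.94 FPKM in Ad-Klf5 and 0.536 FPKM in Ad-Ctl), its coreceptor Cd14 (-0.49) and the adaptor Traf5 (-0.36). Of 19 interferon regulators and nucleic acid sensors, 12 had a ratio below 0, with a median of -0.12. Irf9 and Stat2, which act in the response to type I interferon, were at 17.2 and 17.4 FPKM in Ad-Klf5, against 34.8 and 26.9 FPKM in Ad-Ctl. Their log2 ratios were -0.98 and -0.60, while on the other side of 0, Irf7 and Ifih1 each had a log2 ratio of 0.32. The 22 measured Jak-STAT genes were evenly spread, with 11 above 0, and Socs7 (-0.62), Stat5a (-0.42) and Stat3 (-0.39) had the widest ratios.

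Proteins that bind cytokine mRNAs and set their decay had a median of 0.30 in 12 measured genes, 8 of them above 0. This median was 0.080 with a minimum mean of 5 FPKM, 0.17 at a pseudocount of 5 and 0.20 with equal FPKM sums. Zfp36l1, a decay factor of AU-rich mRNAs, was at 9.98 FPKM in Ad-Klf5 and at 5.02 FPKM in Ad-Ctl (log2 ratio 0.87). The deadenylase subunit Cnot7 had a log2 ratio of 0.56 and Elavl1, the stabilising protein HuR, of 0.51. Among 14 genes of shedding, cleavage and presentation of chemokines the median was -0.11. The heparan sulfate proteoglycan Hspg2 had a log2 ratio of -0.81, the heparan sulfate enzyme Ndst1 of -0.75, and Mmp2, a protease that can cleave Ccl7 and Cxcl12, of -0.65. Adam17 and Adam10, which shed fractalkine, were at 5.29 and 21.9 FPKM in Ad-Klf5, against 7.66 and 20.3 FPKM in Ad-Ctl. Of 6 leukocyte adhesion molecules 5 had a ratio below 0, among them Cd99l2 (-0.39), Jam3 (-0.34) and Mcam (-0.28), and Vcam1 was at 98.7 FPKM in Ad-Klf5 and at 110 FPKM in Ad-Ctl. Of 9 other cytokines, Mif was at 476 FPKM in Ad-Klf5 and at 330 FPKM in Ad-Ctl (log2 ratio 0.53), the TNF family member Tnfsf12 had a log2 ratio of -0.48 and Kitl, the ligand of Kit, of 0.45.

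**Figure D3:**
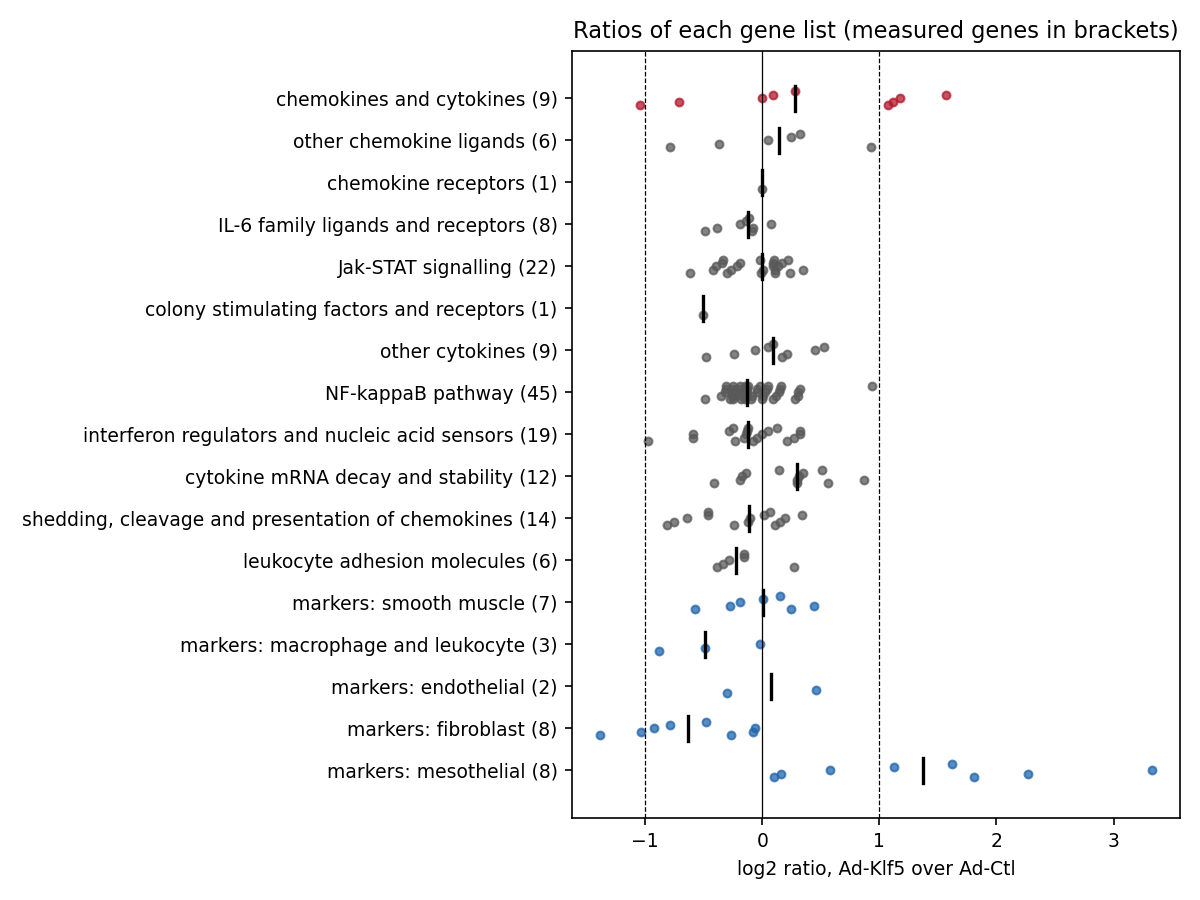
Log2 ratio between Ad-Klf5 and Ad-Ctl (horizontal axis) for each measured gene of the chemokine and cytokine set (red), of the lists of genes they work with (grey) and of the cell type marker lists (blue), with a black bar at each median and dashed lines at 2-fold. No gene of the grey lists passes 2-fold, and 5 mesothelial markers are higher and 2 fibroblast markers are lower. Of all measured genes 0.975% are higher and 0.679% are lower.

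Markers of other cell types also differed between the libraries. Of 12 mesothelial markers 8 were measured, all with a ratio above 0, and Msln, Upk3b, Upk1b, Krt19 and Slpi were higher. The summed level of the list was 184 FPKM in Ad-Klf5 and 52.0 FPKM in Ad-Ctl, and Krt8, Wt1, Lrrn4 and Bnc1 were not listed. Of 12 fibroblast markers 8 were measured, none with a ratio above 0, and Pdgfra (-1.39) and Col14a1 (-1.04) were lower. Their summed level was 643 FPKM in Ad-Klf5 and 839 FPKM in Ad-Ctl. Of 20 leukocyte markers 4 were listed, at a summed level of 39.4 FPKM in Ad-Klf5 and 45.3 FPKM in Ad-Ctl, namely Fcgr3 (log2 ratio -0.88), Cd14 (-0.49), Cd74 (-0.02) and Cd68. Cd68 did not pass the filter, at 0.938 FPKM in Ad-Klf5 and 0.229 FPKM in Ad-Ctl, and neither Ptprc nor Adgre1 nor Cd3e was listed. Of 12 endothelial markers Egfl7 (-0.30) and Eng (0.45) were listed, summing to 5.13 FPKM in Ad-Klf5 and to 5.44 FPKM in Ad-Ctl. The part of the mesothelial and fibroblast markers in the chemokine ratios was not tested.

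The 4 higher chemokines share a short transcript. Exonic length, the bases covered by any exon in GENCODE vM21, was 801 bases for Ccl7, 960 for Ccl5, 1138 for Ccl2 and 2252 for Cxcl10, while it was 3930 for Cx3cl1 and 8176 for Cxcl12. It was 4350 for Lif and 5281 for Csf1, both longer than Cx3cl1, with log2 ratios of 0.28 and 0.090. When the measured genes were divided by exonic length into 4 bins of like size, the shortest bin, up to 2739 bases, held Ccl7, Ccl5, Ccl2, Cxcl10 and Cxcl1. In it 2.13% of genes were higher and 0.434% were lower, with a median log2 ratio of 0.11. In the longest bin, which holds Cxcl12, 0.158% were higher and 1.06% were lower, with a median of -0.13. Cxcl1, of the shortest bin, has 1875 bases and a log2 ratio of -0.0036. Across 10142 genes, which are not independent replicates, Spearman's rho between ratio and exonic length was -0.26. The part of length in the chemokine ratios was not tested.

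**Figure D4:**
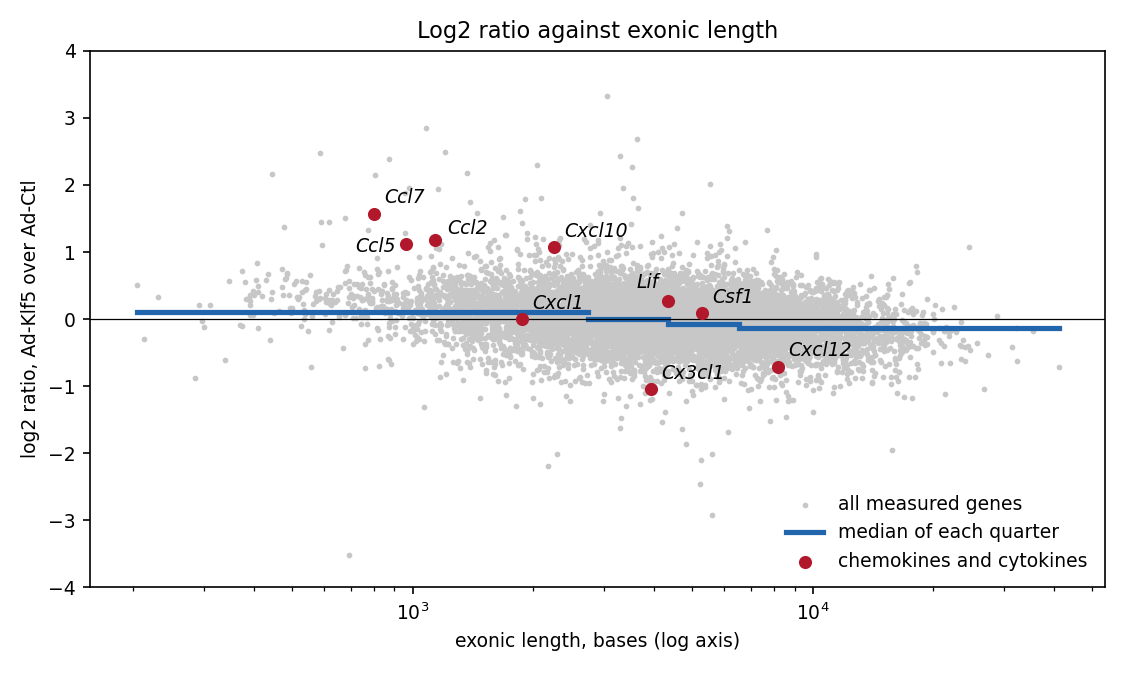
Log2 ratio between Ad-Klf5 and Ad-Ctl (vertical axis) against exonic length in bases on a log axis for all measured genes with a length (grey) and the 9 measured chemokines and cytokines (red), with the median of each of the 4 length bins as a blue line; 2 genes lie outside the axis, beyond 4. Ccl7, Ccl5, Ccl2, Cxcl10 and Cxcl1 lie in the shortest bin, whose median is 0.11.

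The table also holds 2 numbered columns of group means, which by their values are on the log2(FPKM + 1) scale, and their header does not say which condition a number stands for. They are given as the authors' means and were assigned to neither virus. The first and the second numbered mean were 7.02 and 6.42 for Ccl2, 4.65 and 3.72 for Ccl7, 6.74 and 6.10 for Ccl5, and 5.58 and 4.99 for Cxcl10. They were 5.49 and 5.94 for Cxcl12 and 1.56 and 2.41 for Cx3cl1, and for Il6 they were 0.654 and 0.283. For 9 of the 10 genes the numbered means lie closer together than log2(FPKM + 1) in the named libraries, the exception being Cxcl1, at 6.36 and 6.41. On that scale none of the members called higher or lower was 2-fold apart between the numbered means, whichever virus a number stands for. Both Cxcl1 means lie above log2(FPKM + 1) of Cxcl1 in either named library, so the means are not averages of these libraries alone. The header does not say over which libraries they were formed.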

How the data were processed

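RNA of mouse VSMCs infected with either adenovirus was sequenced, 1 named library per condition, and samples were assigned by their titles. The authors deposited FPKM values for 11275 protein-coding gene rows, summing to 300045 in Ad-Klf5 and 278962 in Ad-Ctl. They also deposited numbered group means, by their values on the log2 scale, whose condition the header does not name, and the fold changes, p-values and q-values of their own comparison, which were not used. Per the labels, cutadapt, HISAT2 2.0.5, STAR 2.5.2b and StringTie were named without their roles. The methods name other tools and another genome, but the coordinates are those of GRCm38, and 11255 row IDs were found in GENCODE vM21. Without counts, no depth or interval was computed.

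Rows sharing one of 12 symbols were summed. Ratios used a pseudocount of 1 and a mean of at least 1 FPKM. Members and gene lists were chosen with earlier results of these data known. Named were all 10 members, Klf5, the receptors of the members where listed, and for each list every 2-fold gene or otherwise up to 3 with the widest ratio; Rela, Nfkbia, Vcam1, Adam10, Adam17, Irf7, Ifih1, Cd68, the Cxcl1 and Cx3cl1 neighbours and the smooth muscle markers were named for their role after their values were seen. Some genes that this rule names are not reported here. The ratios and the counts of 2-fold genes were first tested on simulated data, and the other calculations were not. Python 3.11.15, numpy 2.4.6, pandas 2.3.3 and matplotlib 3.10.9 were used.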

Additional observations from a re-analysis of the deposited data

How the results depend on the processing

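The ratios were recomputed with a pseudocount of 0.1 or 5, without the filter or with a minimum mean of 5 FPKM, with equal FPKM sums, median-centred ratios or equal upper quartiles, and with the row of the highest mean for each symbol. Leaving out the rows named Drp1, Fis1, Mfn1 and Mtfr1 was chosen after the data were seen. Ccl2 (1.07 to 1.19), Ccl5 (1.01 to 1.13) and Ccl7 (1.22 to 1.68) were at least 2-fold higher in all 9 alternatives. The filters, the choice of row and the left-out rows could not change these ratios. Only the pseudocounts and the scalings could move them. All of these alternatives use the named libraries, and none of these genes was 2-fold apart between the authors' numbered means. Cxcl10 fell under 2-fold at a pseudocount of 5 (0.989) and with equal sums (0.970). Cx3cl1 was at -0.503 with a pseudocount of 5, where 0 members were lower, and it did not pass the minimum of 5 FPKM, which also left 0 lower and moved the median of the members to 1.07 because Lif was left out as well. Cxcl12 stayed between -0.81 and -0.64, Cxcl1 between -0.11 and 0.013 and Csf1 between -0.013 and 0.11.

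Over all measured genes, 99 were higher and 69 lower. These counts were 159 and 189 with a pseudocount of 0.1, 33 and 19 at a pseudocount of 5, 65 and 45 at the stricter minimum, and 77 and 107 with equal sums. Leaving out a library or a count test could not be run with 1 library per condition and no counts. No paired analysis was possible because each condition has 1 named library. The depth limits of single values are unknown.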
